A study of Mus musculus with 6 samples.

Results

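Piezo1 and Piezo2 are the 2 mouse genes of the Piezo family, out of 18193 genes with a probe set of their own on the array, and they were represented by 3 of its 45101 probe sets. A probe set was taken as a member when the array's annotation gave it Piezo1 or Piezo2 as its only gene symbol. Piezo1 had 1 such probe set, 1455157_a_at, and Piezo2 had 2, 1442115_at and 1430736_at. Piezo proteins are very large membrane proteins that open in response to stretch or indentation of the cell membrane and let calcium and other cations in. Piezo1 is known from endothelium, red blood cells, smooth muscle and many other non-neuronal cells. Piezo2 is the main touch and proprioception channel of mammalian sensory neurons, and in the gut epithelium it is known from enterochromaffin cells, the serotonin-releasing sensory cells.

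The cells came from the colon of Mapttm1(EGFP)Klt/J mice, in which the gene of the microtubule protein tau drives EGFP, and were sorted into Mapt-EGFP+ cells, described as colonic neurons, and Mapt-EGFP- myenteric cells. There were 3 libraries of each kind, called EGFP-positive and EGFP-negative here, and each pooled 2, 4 or 6 mice, without a statement of which number belongs to which library. All mice, of both groups, carried the EGFP allele and had received fluorescent cholera toxin subunit B in the celiac ganglion 3 to 4 days before they were killed, to trace neurons that project from the gut. The sources used here do not give zygosity or age. RNA was hybridised to 1-colour Affymetrix mouse arrays, and the values are log2 expression values as deposited. The number of arrays limits the precision.

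Mapt RNA was read beside the label before the Piezo genes were read. Of its 4 probe sets, the brightest, 1455028_at, had log2 values of 1.43, 1.32 and 5.55 in EGFP-positive replicates 1, 2 and 3, against 1.44, 1.64 and 1.38 in EGFP-negative replicates 1, 2 and 3. The background of the arrays, read from TrpnX probe sets for a bacterial transcript, lay between 1.00 and 1.48. The probe sets 1424718_at and 1424719_a_at read 3.97 and 3.95 in EGFP-positive replicate 3, against 1.60 to 1.84 and 1.32 to 1.66 in the other 5 libraries, and 1417885_at read 1.60 in EGFP-positive replicate 3, against 1.16 to 1.34 in the others. Over the 4 probe sets the readings ran from 1.16 to 1.84 in EGFP-positive replicates 1 and 2 and from 1.29 to 1.84 in the EGFP-negative libraries. In Mapt RNA, EGFP-positive replicates 1 and 2 thus did not stand apart from the EGFP-negative libraries. The label itself is of EGFP, which was not read here, and zygosity is not given. Mapt RNA therefore cannot decide whether the label of these 2 libraries holds. All directions below refer to the labels, and the Piezo values are also given with EGFP-positive replicate 3 as the sole EGFP-positive library.

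Piezo2 was higher in every EGFP-positive library than in any EGFP-negative library when read with probe set 1442115_at, by 2.75-fold on average. Its log2 values were 5.15, 5.24 and 4.64 in EGFP-positive replicates 1, 2 and 3, and 3.56, 3.64 and 3.46 in EGFP-negative replicates 1, 2 and 3. The groups did not overlap, all 6 values stood well clear of the background, and the EGFP-negative libraries lay within 0.18 log2 units of each other. Mean log2 values were 5.01 ± 0.32 in EGFP-positive libraries and 3.55 ± 0.09 in EGFP-negative libraries (SD, n = 3 each). The log2 difference was 1.46 with an SE of 0.18, and its 95% confidence interval, not adjusted for the number of probe sets, ran from 1.00 to 1.91, or 2.01-fold to 3.76-fold.

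This difference did not pass the test over all probe sets (limma, Benjamini-Hochberg adjusted p = 0.471). The unadjusted p was 0.000287, which placed Piezo2 1442115_at at rank 24 of 45037 probe sets. At an adjusted p of 0.05, 0 of 45037 probe sets were called, a background of 0%, while 2927 probe sets, or 6.50%, had an unadjusted p under 0.05. Groups that did not overlap with EGFP-positive higher were found for 2775 probe sets, or 6.16%, and 242 of these, Piezo2 included, had a difference at least as large as that of Piezo2. An exact two-sided permutation test of this probe set gave p = 0.1, the smallest that 3 libraries against 3 allow.

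**Figure D1:**
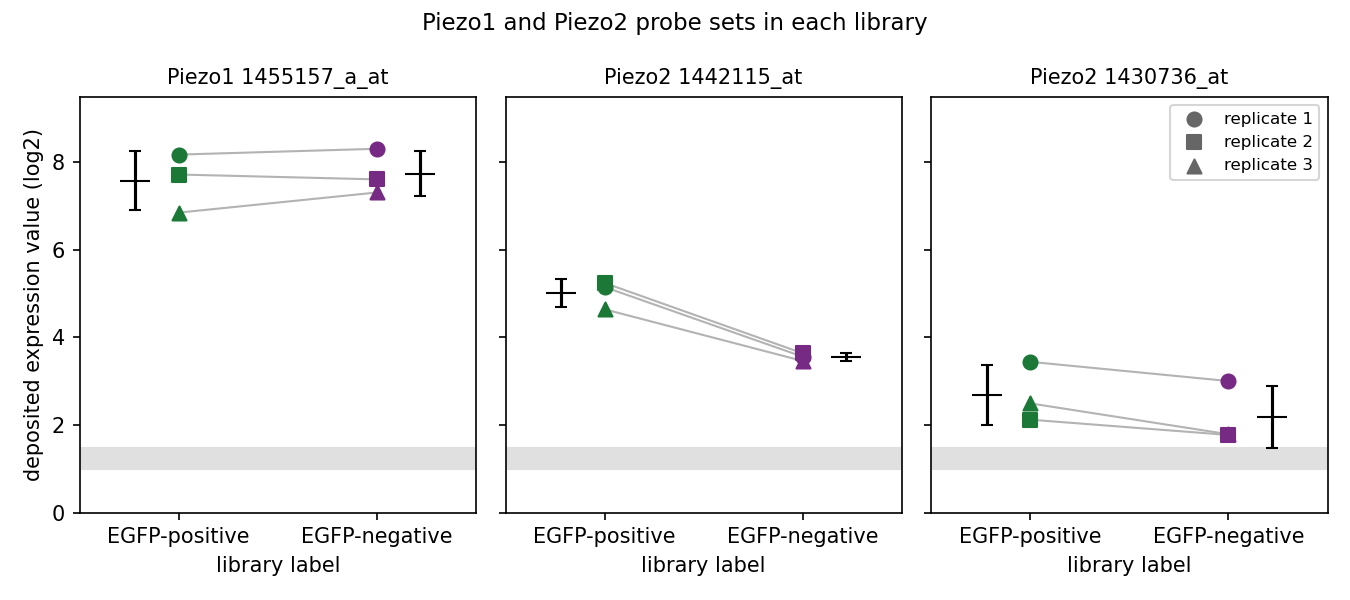
Deposited log2 expression value (vertical axis) of each Piezo probe set in the 3 EGFP-positive libraries (green, left) and the 3 EGFP-negative libraries (purple, right). Marker shapes give the replicate number, grey lines join libraries of the same number, black bars show the mean and SD of 3 libraries, and the grey band is the TrpnX background of 1.00 to 1.48. Piezo2 1442115_at separates the groups, and the other probe sets overlap between them.

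The other Piezo2 probe set, 1430736_at, was dim and did not separate the groups. It had log2 values of 3.44, 2.12 and 2.49 in EGFP-positive replicates 1, 2 and 3, against 3.00, 1.77 and 1.79 in EGFP-negative replicates 1, 2 and 3. Replicate 1 was the highest library in both groups, and the lowest of the 6 values stood only 0.29 above the top of the TrpnX background. Means were 2.69 ± 0.68 in EGFP-positive libraries and 2.19 ± 0.71 in EGFP-negative libraries (SD, n = 3 each). The log2 difference of 0.50 (SE 0.49, 95% confidence interval -0.71 to 1.71) was smaller than the spread within the groups and did not pass (Benjamini-Hochberg adjusted p = 0.972 by limma, exact permutation p = 0.5).

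Compared within libraries of the same replicate number, 1430736_at was nevertheless higher in the EGFP-positive library of all 3 pairs, by 0.44, 0.35 and 0.71 log2 units. When the replicate number was fitted as a block, the 95% confidence interval of its difference ran from 0.15 to 0.84, without a call over all probe sets (limma, Benjamini-Hochberg adjusted p = 0.429). The same pairs differed by 1.59, 1.61 and 1.18 log2 units for 1442115_at. Both Piezo2 probe sets thus had a positive difference in 3 of 3 pairs, with mean log2 differences of 1.46 for 1442115_at and 0.50 for 1430736_at. For 1442115_at any pairing gives this, since its groups did not overlap. The labels do not say that the numbers pair the libraries. The share of all probe sets with a common sign in the pairs was not counted. The value of 1442115_at minus that of 1430736_at within a library averaged 2.33 ± 0.72 in EGFP-positive and 1.37 ± 0.71 in EGFP-negative libraries (SD, n = 3 each). The difference between the probe sets' group differences was 0.96 log2 units (exact two-sided permutation p = 0.2). Since 3 libraries against 3 cannot give a p under 0.1, this test cannot decide whether the probe sets disagree. The within-library values were 1.71, 3.12 and 2.15 in EGFP-positive replicates 1, 2 and 3, and 0.56, 1.87 and 1.67 in EGFP-negative ones. They were higher in the EGFP-positive library of all 3 pairs. Which parts of the Piezo2 transcript the probe sets detect was not analysed here.

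Piezo1 was read well above background in all 6 libraries and showed no difference between the labels beyond the spread. Its probe set 1455157_a_at had log2 values of 8.17, 7.72 and 6.85 in EGFP-positive replicates 1, 2 and 3, against 8.31, 7.61 and 7.31 in EGFP-negative replicates 1, 2 and 3. The ranges overlapped, with replicate 1 highest and replicate 3 lowest in both groups. Means were 7.58 ± 0.67 in EGFP-positive and 7.74 ± 0.51 in EGFP-negative libraries (SD, n = 3 each). The log2 difference was -0.16 (SE 0.42), with a 95% confidence interval of -1.21 to 0.89, so that ratios from 0.433 to 1.85 were compatible with these libraries. It did not pass (Benjamini-Hochberg adjusted p = 0.991 by limma, exact permutation p = 0.8).

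The same-numbered pairs differed by -0.13, 0.11 and -0.46 log2 units for Piezo1, with no common sign. The sign of the mean difference rested on single libraries: it was 0.21 without EGFP-positive replicate 3 and 0.12 without EGFP-negative replicate 1. It also turned positive when the arrays were centred on ribosomal protein genes (0.14) or weighted by quality (0.034). No direction is therefore given for Piezo1.

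The group difference of Piezo2 1442115_at exceeded that of Piezo1. Within a library, the Piezo2 value minus the Piezo1 value was -3.02, -2.48 and -2.21 in EGFP-positive replicates 1, 2 and 3, and -4.75, -3.97 and -3.85 in EGFP-negative replicates 1, 2 and 3. The groups did not overlap, and the difference between them was 1.62 log2 units (exact two-sided permutation p = 0.1, the smallest possible). Centring of whole arrays cancels in this quantity. It compares changes and not levels, since the probe sets of different genes are not on a common scale.

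With EGFP-positive replicate 3, the library with Mapt, as the sole EGFP-positive library, the log2 difference of Piezo2 1442115_at was 1.09 (95% confidence interval 0.65 to 1.53, limma, Benjamini-Hochberg adjusted p = 0.235). In that fit the lone library is assumed to vary like the EGFP-negative ones. Without replicate 3 the difference of 1442115_at was 1.64 (limma, Benjamini-Hochberg adjusted p = 0.549), so the separation was present both in the library with Mapt and in those near the Mapt background. The values of the other members with replicate 3 alone were 0.31 for Piezo2 1430736_at and -0.89 for Piezo1, with intervals that included 0.

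**Figure D2:**
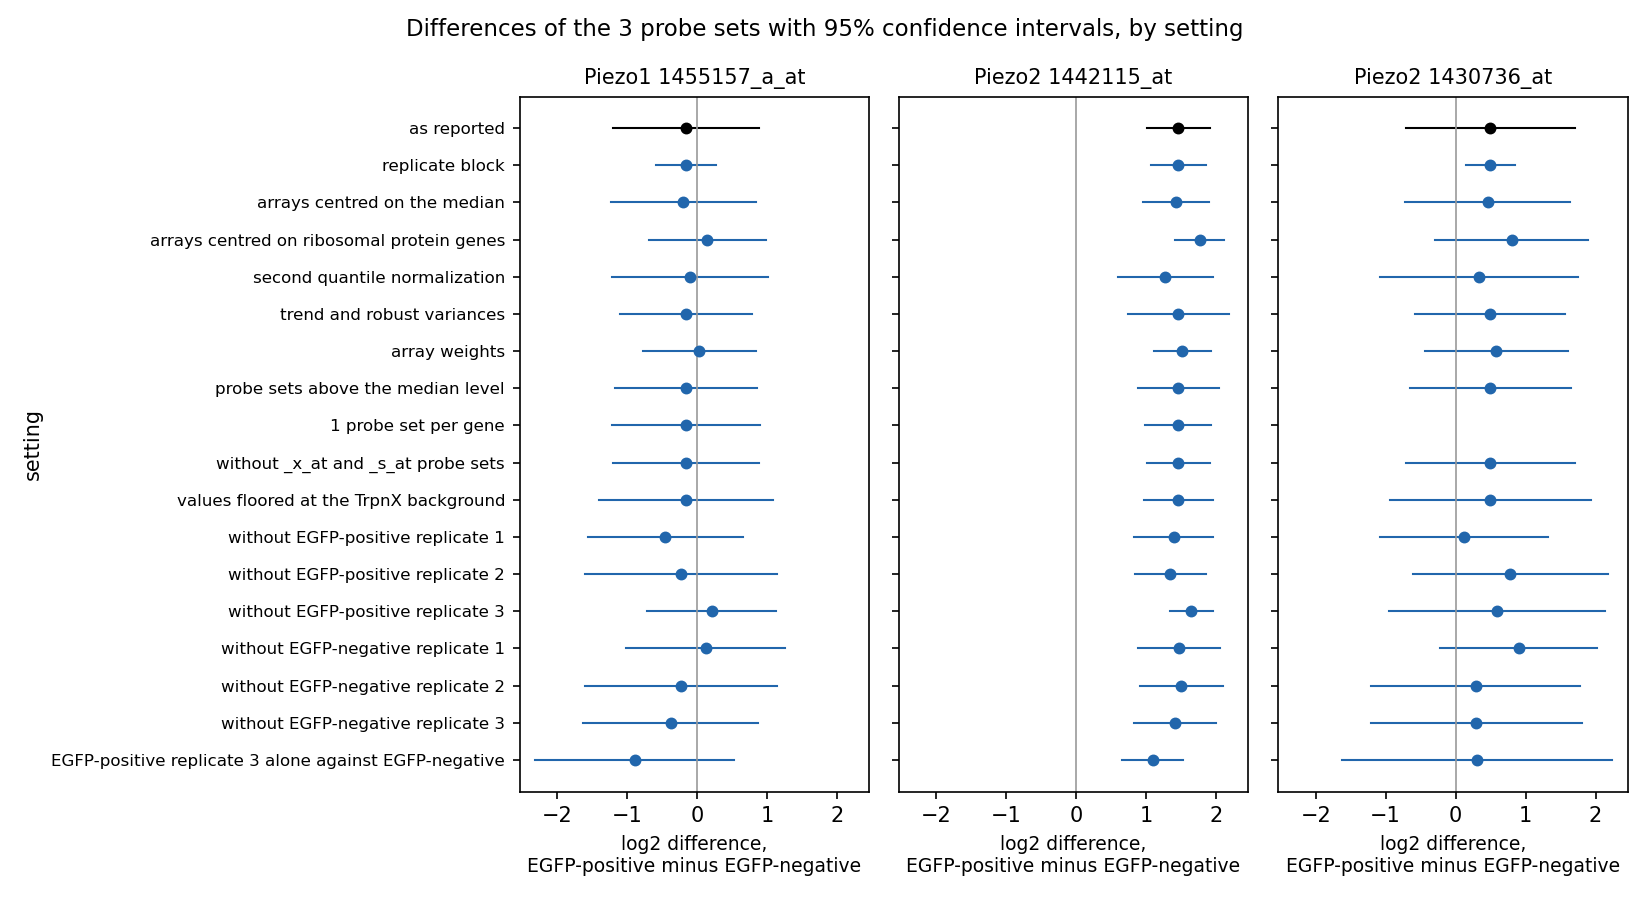
Log2 difference, EGFP-positive minus EGFP-negative (horizontal axis), of each Piezo probe set with its 95% confidence interval, as reported (black) and under each other setting (blue, vertical axis). Every interval of Piezo2 1442115_at lies above 0, those of Piezo1 all include 0, and that of Piezo2 1430736_at lies above 0 with the replicate block alone.

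Marker lists of the cells that the sort could hold were read beside the Piezo values. In bulk libraries, more cells of a type and more RNA per cell cannot be told apart. The 15 pan-neuronal genes on the array averaged 3.51, 3.47 and 6.81 in the EGFP-positive libraries (replicates 1, 2 and 3), against 3.58, 3.88 and 4.16 in those labelled EGFP-negative. Their highest library was EGFP-positive replicate 3, which held the lowest EGFP-positive value of Piezo2 1442115_at and the lowest value of Piezo1. The part of neurons in the Piezo values was not tested. The 10 enteric glia markers averaged 6.42, 6.01 and 8.12, against 4.24, 5.65 and 5.25, and separated the groups as Piezo2 1442115_at did, although their order within the groups differed from that of Piezo2. None of the 10 was at background in all libraries. Of the 10, 5 had EGFP-positive values above all EGFP-negative ones, where 3.07% of all 18193 genes did so, and the part of glia in the Piezo2 difference was not tested.

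Markers of the gut cell type best known for Piezo2 were mixed. The 13 enteroendocrine genes averaged 2.48, 3.14 and 2.44 in the EGFP-positive libraries (replicates 1, 2 and 3), against 2.21, 2.89 and 1.93 in those labelled EGFP-negative, and the ranges overlapped. Tph1, the serotonin-synthesising enzyme that defines enterochromaffin cells, had log2 values of 1.32, 1.86 and 1.55 in EGFP-positive libraries and 1.19, 1.38 and 1.16 in EGFP-negative libraries, close to the TrpnX range. Lmx1a, a transcription factor of these cells, was at background in all 6 libraries. Of the 13, 2 had EGFP-positive values above all EGFP-negative ones, as Piezo2 1442115_at and 3.07% of all genes did. Ddc, the decarboxylase of serotonin and dopamine synthesis, read 5.80, 5.69 and 5.40 in EGFP-positive replicates 1, 2 and 3, against 4.88, 5.28 and 5.16 in EGFP-negative ones (log2 difference 0.52, SE 0.16). The other probe set of Ddc gave a log2 difference of just 0.03. Chga, the gene of chromogranin A, read 2.42, 2.81 and 4.56 against 1.88, 2.25 and 1.62 (log2 difference 1.35, SE 0.58). Chgb, the gene of chromogranin B, had a log2 difference of 1.40 (SE 0.78) with groups that overlapped. Neurons also make these 3 proteins, none of the 13 genes passed over all probe sets, and their part in the Piezo2 difference was not tested. These genes were named after their values were seen.

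Both lists of immune cells ran opposite to Piezo2 1442115_at: the 12 macrophage genes averaged 2.32 to 6.35 in EGFP-positive libraries and 6.45 to 7.93 in EGFP-negative ones, and the 9 lymphocyte genes 1.20 to 2.16 against 2.98 to 5.69. Their part in the Piezo2 difference was not tested.

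Piezo1 and several marker lists had their lowest value of each group in replicate 3, a pattern picked out after the values were seen. Besides the 3 lists given next, the enteroendocrine and macrophage lists did so too. The 9 mesothelial genes averaged 9.14, 8.55 and 6.67 in the EGFP-positive libraries (replicates 1, 2 and 3), and 8.87, 8.14 and 6.84 in those labelled EGFP-negative. As with Piezo1, replicate 1 was highest and replicate 3 lowest in both groups, and EGFP-positive replicate 3 was the lowest of all 6 libraries. None of the 9 was at background in all libraries. The 12 genes of intestinal epithelium averaged 8.33, 7.72 and 5.10 in EGFP-positive libraries and 7.40, 7.52 and 5.96 in EGFP-negative ones, and the 6 of lymphatic endothelium 7.79, 8.87 and 5.38 against 7.60, 8.35 and 6.24, both also lowest in replicate 3 but not highest in replicate 1 of both groups. The part of these cells in the Piezo1 values was not tested. Markers of other cells known for Piezo1 ordered the libraries differently, and the part of those cells was not tested either. Blood endothelium (12 genes) averaged 5.48, 6.50 and 4.54 in EGFP-positive libraries and 5.75, 6.08 and 6.02 in EGFP-negative ones, and smooth muscle (10 genes) 8.55, 8.17 and 10.15 against 8.96, 8.41 and 10.45.

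The remaining lists overlapped between the labels. Their list means were 5.77 to 6.32 in EGFP-positive and 5.00 to 7.16 in EGFP-negative libraries for the 5 genes of interstitial cells of Cajal, which pace the gut muscle. List means were 8.50 to 8.97 against 8.44 to 9.48 for the 11 markers of fibroblasts and related cells that carry PDGFRA. The 3 red blood cell genes ran from 1.42 to 1.80 against 1.39 to 3.45, so that these Piezo1-bearing cells left little signal in 5 of the 6 libraries.

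**Figure D3:**
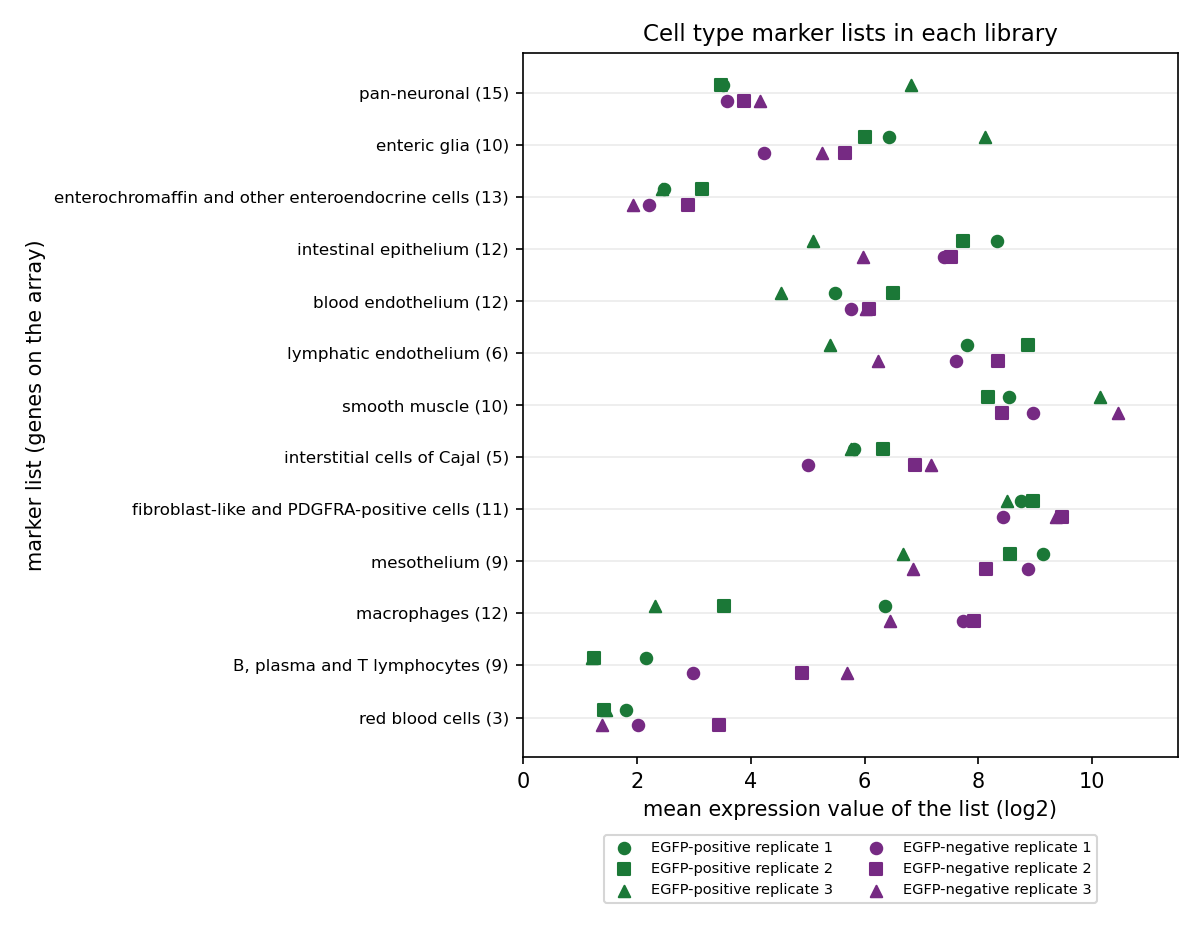
Mean log2 expression value of each cell type marker list (horizontal axis) in the 3 EGFP-positive libraries (green, upper row of a list) and the 3 EGFP-negative libraries (purple, lower row), with the number of genes on the array in brackets. Glia markers are higher and macrophage and lymphocyte markers lower in all EGFP-positive libraries. Mesothelial, intestinal epithelium, lymphatic endothelium, enteroendocrine and macrophage markers are lowest in replicate 3 of both groups.

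Piezo2 1442115_at had a higher difference than any of the listed channels known or proposed to respond to mechanical force, each read from its probe set with the highest mean. Another of the 4 probe sets of Trpm7, a cation channel with a kinase domain, gave 1.67. Of 25 such genes listed beside the Piezo genes, 23 were on the array, and 0 passed over all probe sets in either direction (limma, Benjamini-Hochberg lowest adjusted p = 0.719, with 3 of 23 at an unadjusted p under 0.05). Their median log2 difference was 0.10, beside -0.02 over all 18193 genes, and 0.04 to 0.24 with 1 library left out at a time. EGFP-positive libraries lay above all EGFP-negative ones for 4 of the 23 and below them for 3, where 3.07% and 6.04% of all genes did so. These were Asic2, Tmem63b, Kcnk4 and Tmem63c above, and Kcnk2, Tmc1 and Tmc2 below. All but Asic2 and Kcnk2 were named after their values were seen. Kcnk4 and Tmc2 did not exceed background in any library, and Tmc1 did so in EGFP-negative replicate 1 alone (1.78). The 2 other probe sets of Tmc1 had differences of the opposite sign, up to 0.09. Another probe set of Tmem63b gave a log2 difference of just 0.02.

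Asic2, an acid-sensing channel subunit of sensory neurons, came next after Piezo2, with log2 values of 4.12, 2.59 and 3.59 in EGFP-positive replicates 1, 2 and 3, against 2.46, 2.50 and 1.60 in EGFP-negative ones. The groups were set apart by only 0.09 log2 units between EGFP-positive replicate 2 and EGFP-negative replicate 2, and the log2 difference was 1.25 (SE 0.46). Kcnk2, a stretch-activated potassium channel, was the lowest of the list, at 2.28, 2.78 and 2.22 in EGFP-positive libraries and 2.95, 5.35 and 4.45 in EGFP-negative ones, with a log2 difference of -1.83 (SE 0.62). The direction of Piezo2 was thus shared by Asic2 and not by Kcnk2, and neither gene passed.

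**Figure D4:**
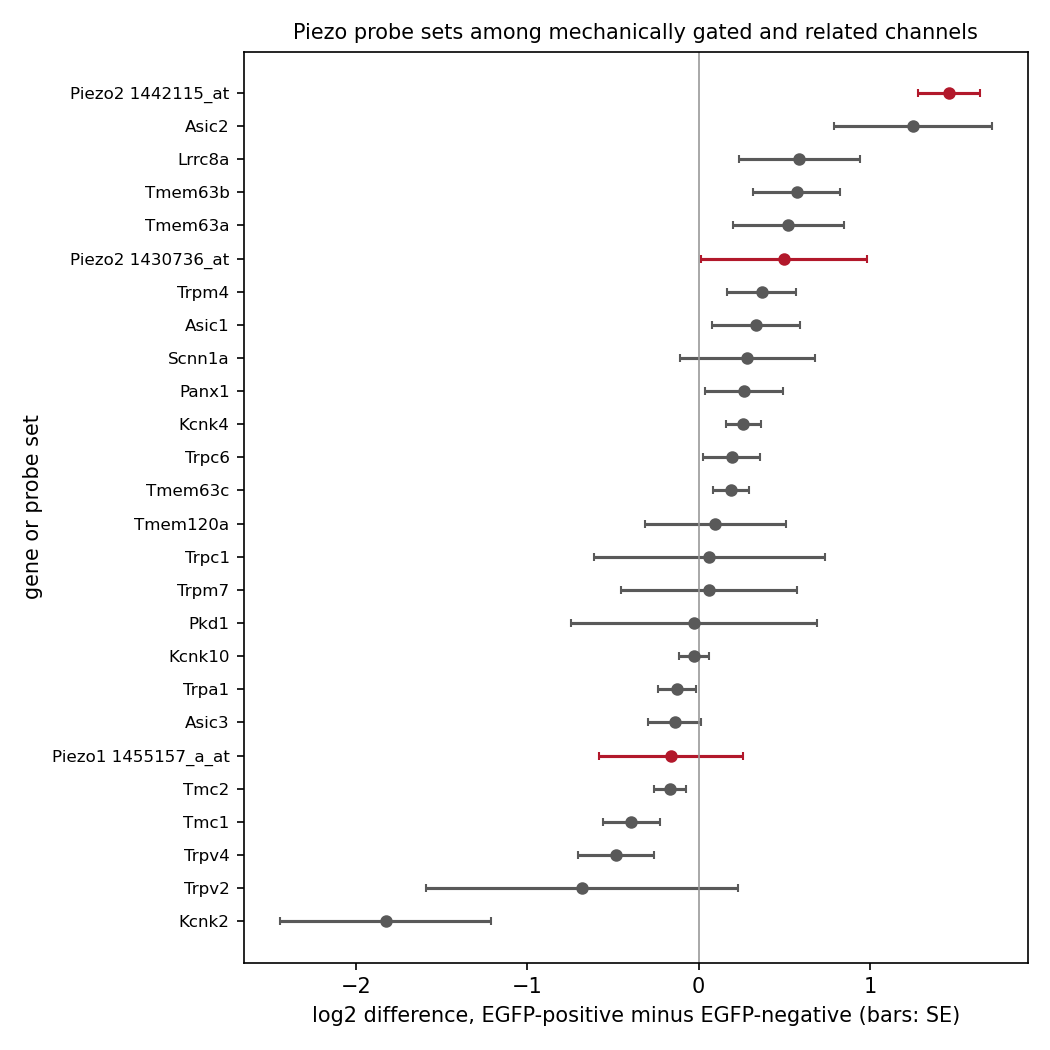
Log2 difference, EGFP-positive minus EGFP-negative (horizontal axis), with its SE as bars, for the 3 Piezo probe sets (red) and 23 mechanically gated and related channel genes (grey), ordered by the difference. Piezo2 1442115_at is at the top at 1.46, Piezo1 is close to 0 at -0.16, and Kcnk2 is at the bottom at -1.83.

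Proteins that bind Piezo channels or modulate them were read from a list of 15, all on the array, and 0 passed in either direction, with 0 at an unadjusted p under 0.05. Their median log2 difference was 0.05, and -0.05 without EGFP-positive replicate 3. Mdfic, which binds Piezo channels as an auxiliary subunit, read 7.14, 7.15 and 6.68 in EGFP-positive replicates 1, 2 and 3, against 7.29, 7.64 and 7.30 in EGFP-negative ones, with a log2 difference of -0.42 (SE 0.18). Its EGFP-positive values all lay below the EGFP-negative ones, as for 1 of the 15 genes and for 6.04% of all genes. Stoml3, a stomatin-like protein that sensitises Piezo channels in mouse sensory neurons, stayed between 1.52 and 1.78. Mtmr2, a lipid phosphatase that dampens Piezo2 currents, had means of 5.46 in EGFP-positive and 5.23 in EGFP-negative libraries, a log2 difference of 0.23, and its other probe set gave 0.95. Less bright probe sets of Ctnnb1 and Sptbn1 gave log2 differences of up to 1.84 and 1.55, above any gene of the list as read here. These 5 genes were named after their values were seen.

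The ends of this list were cell adhesion genes. Cdh2, neural cadherin, read 7.26, 7.58 and 9.78 in EGFP-positive libraries and 5.84, 6.99 and 7.60 in EGFP-negative ones, a log2 difference of 1.40 (SE 0.80), and of 0.61 without EGFP-positive replicate 3. Pecam1, an adhesion molecule of endothelium and part of its flow-sensing complex, read 4.71, 5.95 and 3.81 against 5.74, 5.44 and 6.08, a log2 difference of -0.92 (SE 0.55), which was -0.42 without EGFP-positive replicate 3 and -1.49 without EGFP-positive replicate 2. The groups overlapped for both genes.

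A list of genes around calcium entry and the stretch-regulated cofactor YAP did not separate the groups. It holds regulators, such as Yap1 itself, Tead1 and Nfatc1, beside genes that respond to them, so it is not a list of targets alone. All 13 listed genes were on the array, 0 passed in either direction, 0 had an unadjusted p under 0.05, and the median log2 difference was 0.14. With 1 library left out at a time this median ran from -0.05 to 0.35. Ccn2, a YAP target, had the highest difference of this list, at 9.43, 9.91 and 10.63 in EGFP-positive replicates 1, 2 and 3 and 7.91, 9.46 and 9.76 in EGFP-negative ones (log2 difference 0.95, SE 0.57), and its difference was 0.38 without EGFP-negative replicate 1 and 0.63 without EGFP-positive replicate 3. Klf2, which Piezo1 is known to induce in endothelium under flow, had the lowest, at 8.50, 8.43 and 7.20 against 8.61, 8.83 and 8.14 (log2 difference -0.49, SE 0.40), and its difference was -0.07 without EGFP-positive replicate 3. As for Piezo1 and several marker lists, the lowest Klf2 value in both groups was that of replicate 3. A link between Piezo1 and Klf2 was not tested.

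Genes of mechanosensory neurons had their highest average in EGFP-positive replicate 3. The 14 genes on the array, of 16 listed, averaged 1.99, 1.80 and 3.75 in the EGFP-positive libraries (replicates 1, 2 and 3), and 2.05, 2.27 and 2.27 in those labelled EGFP-negative, with 0 that passed in either direction, 1 at an unadjusted p under 0.05 and a median log2 difference of 0.34. This median was -0.28 without EGFP-positive replicate 3, 0.18 without EGFP-negative replicate 1, 0.67 without EGFP-positive replicate 2, 0.66 without EGFP-positive replicate 1 and 1.55 with EGFP-positive replicate 3 alone. Dbh, a noradrenaline-synthesising enzyme, read 3.59, 3.38 and 5.06 in EGFP-positive libraries and 2.99, 3.03 and 2.99 in EGFP-negative ones (log2 difference 1.01, SE 0.45), with 0.48 without EGFP-positive replicate 3 and as little as 0.18 from another of its probe sets. Runx3, a transcription factor of proprioceptors and also of lymphocytes, read 1.33, 1.14 and 1.01 against 1.47, 2.27 and 2.76, while its second probe set gave a difference of just -0.08 log2 units. The Piezo2 value of 1442115_at in EGFP-positive replicates 1 and 2 was higher than in replicate 3, where this list had its highest mean. The part of mechanosensory neurons in the Piezo2 difference was not tested.

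The genes whose pattern over the 6 libraries was most like that of a Piezo probe set were searched among 8069 genes with a mean log2 value of at least 4. For Piezo2 1442115_at the closest were Ino80d, Garre1, Fyttd1, Ift122 and Lncpint, with Pearson r from 0.955 to 0.984 over 6 libraries. Ino80d, a subunit of a chromatin remodelling complex, read 6.04, 5.88 and 5.64 in EGFP-positive replicates 1, 2 and 3, against 5.10, 5.04 and 4.88 in EGFP-negative ones. Lncpint, a long noncoding RNA, had a log2 difference of 1.58 (SE 0.18), the largest of the 5 and close to that of Piezo2. A Pearson r of 0.9 or more with this probe set was reached by 15 genes, or 0.186%.

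For Piezo1 the closest genes were Prr13, Tpd52, Creb3, Ehd1 and Mapkapk3, with Pearson r from 0.988 to 0.996, and 233 genes, or 2.89%, reached 0.9. Prr13, at the head of this list, read 9.97, 9.30 and 8.28 in EGFP-positive replicates 1, 2 and 3 and 10.17, 9.31 and 8.95 in EGFP-negative ones, with replicate 1 highest and replicate 3 lowest in both groups. For Piezo2 1430736_at they were Trim25, Brd2, Cldnd1, Ppp1r16a and Plekhg3, with Pearson r from 0.986 to 0.993, and 47 genes, or 0.582%, reached 0.9. No gene was among the closest 5 of both Piezo2 probe sets. These values describe 6 libraries, in which all genes were read on the same arrays.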

How the data were processed

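The authors deposited log2 expression values, 1 per probe set and library, which RMA had produced, per the submitters' processing notes. Its version and settings are not given in the sources used here. The log2 scale was read from the values (0.05 to 15.2). Column medians ran from 1.91 to 1.99, but the upper quartiles differed (4.08 to 4.86), which is unusual for RMA with quantile normalisation, so little is read from small differences at low values. Between 6182 (EGFP-negative replicate 1) and 7621 probe sets of a library lay above a log2 value of 6. Each array held 45101 probe sets, of which 64 were controls. Symbols came from the platform annotation, in which 34945 probe sets had 1 symbol.

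The groups were compared with limma 3.58.1 (lmFit and eBayes, two-sided) in R 4.3.3 over 45037 probe sets, and called at a Benjamini-Hochberg adjusted p of 0.05. A positive difference means higher in EGFP-positive. Since libraries pool mice, p-values cover the spread between pools. Listed genes were read from their probe set with the highest mean (18193 genes). Members, lists and rules were chosen with earlier results of these data known. Lists shared Pecam1, Cdh1 and Cacna1h. The rule named all Piezo probe sets, Mapt, the highest and lowest member of each function list, and the 5 genes most like each Piezo probe set. Same-numbered libraries deviated together (correlation of deviations from the group means 0.36, 0.30 and 0.38), which treats the numbers as pairs by the data and not by the labels. The test was also run on simulated data with independent noise. Those data lack the shared deviations above, so that run does not bear on the calls here. Alternatives covered the replicate block, centring, quantile normalisation, variances, weights, filters, a floor and leaving out each library. Figures used Python 3.11.15, pandas 2.3.3 and matplotlib 3.10.9.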

Additional observations from a re-analysis of the deposited data

How the results depend on the processing

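Piezo2 1442115_at kept a positive log2 difference under all 17 alternatives (1.09 to 1.76) and passed over all probe sets under none of them (limma adjusted p 0.201 to 0.999). Leaving out 1 library at a time gave 1.34 to 1.64. Piezo2 1430736_at kept its direction under 16 alternatives (0.12 to 0.91), with the extremes without EGFP-positive replicate 1 and without EGFP-negative replicate 1, and it was not tested with 1 probe set per gene. Piezo1 turned sign in 4 of 17 alternatives, with arrays centred on ribosomal protein genes (0.14), with array weights (0.034), without EGFP-positive replicate 3 (0.21) and without EGFP-negative replicate 1 (0.12), and leaving out 1 library gave -0.46 to 0.21. The cause was not tested. The Piezo2 difference minus the Piezo1 difference was 1.34 to 1.85 over 8 alternatives. With the replicate block the log2 differences were the same by construction and their SEs were 0.14, 0.12 and 0.15 for Piezo2 1442115_at, Piezo2 1430736_at and Piezo1, with adjusted p = 0.390, 0.429 and 0.835. The block changed no call, and an exact sign-flip test of 3 pairs cannot give a p under 0.25. Over all probe sets the count past the threshold was 0 in 15 of 17 alternatives. It was 2 with values floored at the TrpnX background (Vac14 and Mefv, both lower) and 2 without EGFP-positive replicate 1 (Ccr2 and Fermt3, both lower), named after their values were seen, and leaving out 1 library gave 0 to 2. Comparing EGFP-positive replicate 3 alone with the EGFP-negative libraries was chosen after seeing the data. Centring on ribosomal protein genes moved the median log2 differences of the mechanically gated channel, Piezo partner, and calcium and YAP lists to 0.40, 0.35 and 0.44. The dimness of 1430736_at limits what it can show.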
